A study of Mus musculus with 4 samples.

Results

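CLIP-seq crosslinks a protein to the RNA it touches in living cells, precipitates the protein and sequences the attached RNA, so that clusters of reads (peaks) mark where the protein was bound. The regions described here are stretches of the mouse genome outside the transcripts and transcript clusters to which most peaks were assigned, in which peaks of the splicing regulators SRSF1 and SRSF2 were found again and again. A region is a unit that the authors named "nongenic" with a number, and every unit with at least 5 peaks over the SRSF1 and SRSF2 lists together was kept. Mitochondrial peaks and those in a short window each on chromosomes 17 and 9 were left out. This gave 446 regions of 3349 nongenic units, with 1847 SRSF1 peaks and 2212 SRSF2 peaks. They held 45.0% of the 9016 nongenic peaks and 3.78% of all peaks. These totals of units and peaks include the places left out. The number of peaks chose the regions and is therefore a description. At the threshold, 122 regions had exactly 5 peaks, and 213 nongenic units with 4 peaks fell just outside.

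The cells were mouse embryonic fibroblasts (MEFs) of a line for SRSF1 and a line for SRSF2. In each the SR protein is tetracycline-repressible; the cells were kept without tetracycline, and an antibody against the HA tag was used for precipitation. Protein and cell line cannot be told apart, and 1 library per protein was analysed here, with 50983 peaks for SRSF1 and 56336 for SRSF2. Values therefore have no replicate error, intervals cover counting error only, and the proteins were not compared by a test. SRSF1 libraries of siRNA-treated cells (control, or targeting SRSF2) were not analysed here. Of 12 fibroblast markers looked for by name, Col1a1 and Postn had peaks (68 of SRSF1 and 54 of SRSF2), against 0 of 4 leukocyte, 0 of 3 endothelial, 0 of 3 neuronal and 1 of 5 epithelial markers (Krt19, with 1 SRSF1 peak). Most peaks lie in units without a gene name, so a marker with no named peak is not shown to be unbound.

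SR proteins bind exonic and other RNA sequences through RNA recognition motifs and take part in the choice of splice sites, and SRSF1 and SRSF2 also act on RNA outside splicing. RNA outside annotated genes includes long noncoding RNAs, the long primary transcripts from which microRNAs (miRNAs) are cut, and transcripts that run on past the annotated end of a gene. Which of these, if any, a region belongs to cannot be read from its peaks alone.

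Of the 10 regions with most peaks, 4 lay between named genes at most 500 kb apart. For 2 of these the interval also holds miRNA genes on the same strand. The rest of the 10 were not examined for miRNA genes. Nongenic-22976 (chr8:86724827-86729395, plus strand, mm9) lay between Dcaf15 and Zswim4, an interval with Mir23a, Mir24-2 and Mir27a on the same strand. Nongenic-4085 (chr11:86392386-86397358, minus strand) lay between Med13 and Dhx40, an interval with Mir21a. The mature miRNAs, small RNAs that pair with target messages mostly through the seed at bases 2 to 8, are given with the seed in capitals, because they are the named small RNAs in the intervals of these 2 regions.
mmu-miR-23a-5p: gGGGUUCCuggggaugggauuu
mmu-miR-23a-3p: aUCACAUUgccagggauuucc
mmu-miR-24-2-5p: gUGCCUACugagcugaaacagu
mmu-miR-24-3p: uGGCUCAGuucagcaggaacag
mmu-miR-27a-5p: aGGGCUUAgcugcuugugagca
mmu-miR-27a-3p: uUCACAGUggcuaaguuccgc
mmu-miR-21a-5p: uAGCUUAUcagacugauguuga
mmu-miR-21a-3p: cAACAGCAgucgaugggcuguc
The sequences are from RefSeq (GRCm38.p6), and the 8 mature miRNAs had 8 distinct seeds. Gene order was taken from GRCm38 and peak positions from mm9. The distance from a peak to a hairpin is therefore not known, and no peak is placed on one.

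In nongenic-22976, SRSF1 had 22 peaks and SRSF2 15 within 4.57 kb, 8.10 peaks per kb. The share of SRSF1 among its peaks was 59.5% (95% interval 42.1 to 75.2). Its strongest peaks lay at the 5′ end, where the SRSF1 peak at chr8:86725076-86725135 had a score of 21 and overlapped the SRSF2 peak at chr8:86725077-86725111, with a score of 13. Only 5 peaks of each protein were overlapped by the other, although the region was dense. On GRCm38 the interval between Dcaf15 and Zswim4 also holds the coding genes Podnl1 and 4930432K21Rik and the long noncoding RNA genes Gm26532 and Gm37352 on this strand. A further recurrent region, nongenic-22979, lay 3435 nt away.

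Nongenic-4085 had 20 SRSF1 and 16 SRSF2 peaks in 4.97 kb, 7.24 per kb. It began 300 nt past the 3′ end of an unnamed genic unit. Its highest SRSF2 score was 20, at chr11:86396478-86396522, and its highest SRSF1 score 13. Of its peaks, 44.4% were overlapped by the other protein, 8 of each. The interval between Med13 and Dhx40 holds Cltc, Rps6kb1 and Vmp1 on this strand besides Mir21a. Cltc encodes the clathrin heavy chain and Vmp1 a membrane protein of autophagy.

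Across all regions, 105 lay between named genes at most 500 kb apart. For 26 of these regions (24.8%, 95% interval 16.9 to 34.1) the gene interval held at least 1 miRNA hairpin on the same strand. Among the other nongenic units so flanked, this held for 111 of 702 (15.8%, 13.2 to 18.7). Regions in the same gene interval, such as nongenic-22976 and nongenic-22979, were counted separately. They are not independent, so these 95% intervals can be too narrow. The intervals around the recurrent regions were longer, with a median of 278 kb against 214 kb, and the part of length in the difference was not tested. The interval held exactly 1 coding gene on the unit's strand for 18.1% of the regions and 17.9% of the others. It held no coding gene on that strand for 14.3% and 16.8%, and genes on the opposite strand were not counted. One such interval, between Clstn1 and Gpr157, held nongenic-16321. On its strand were 5 long noncoding RNA genes and Mir34a, a miRNA gene induced by p53. Of the 15 peaks of nongenic-16321, 10 lay at chr4:149022148-149022966, beginning 334 nt past the last peak of Clstn1.

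The regions differed widely in shape. The median region had 7 peaks (quartiles 5 and 9) over a span of 6.17 kb from first to last peak, but spans ran from 102 nt to 4187 kb. Of the regions, 104 (23.3%) spanned at most 1000 nt, 91 (20.4%) more than 100 kb and 25 more than 1000 kb. Peaks were joined into stretches across gaps of up to 5 kb. By that measure 238 regions (53.4%) were 1 stretch and 208 were 2 or more, up to 9. In 346 regions at least 5 peaks lay in a single stretch, while the other 100 reached 5 peaks only by adding up separate stretches.

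The authors' peak numbers divided some of the regions too. Within a nongenic unit the numbering of peaks started again in 135 regions (30.3%), 133 of the 208 with several stretches and 2 of the 238 with 1. The gap to the next peak was 147 nt at the median where the numbering went on and 140572 nt where it started again. A region is thus a numbered gap between annotated units that can hold several separate groups of peaks, and is not in every case 1 RNA. Regions of 1 stretch had a median density of 6.35 peaks per kb and those of several 0.120, with a span of 1.18 kb against 72.0 kb.

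**Figure D1:**
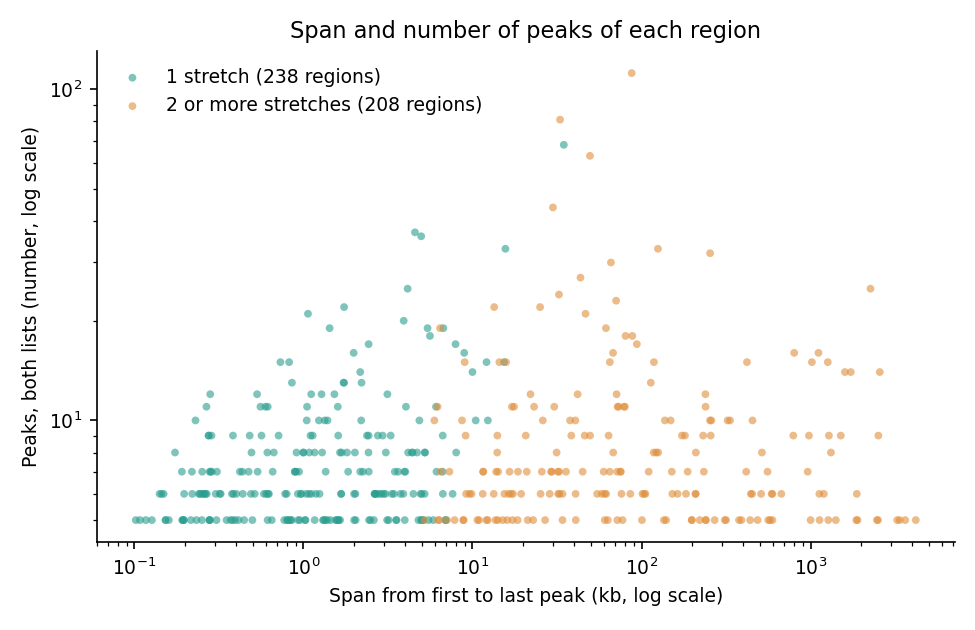
Span from first to last peak (kb, log scale) against the number of peaks over both lists (log scale), 1 point per region. The 238 regions of 1 stretch lie mostly at short spans and the 208 of 2 or more at long ones, at similar numbers of peaks.

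Over all regions the median density was 1.35 peaks per kb, against 0.486 in the 4789 genic units with at least 5 peaks. The median span of those genic units was 29.8 kb. Density follows in part from the rule and from the span it is divided by, so it is a description only. Regions of several stretches, at 0.120, were below the genic median. The densest regions were short, as that division favours. Nongenic-1022 (chr1:115800630-115800731, minus strand) held 2 SRSF1 and 3 SRSF2 peaks in 102 nt, 49.0 per kb. Its SRSF1 peak with a score of 29 and its SRSF2 peak with a score of 51 overlapped. The next by density were nongenic-3311 (chr11:98064113-98064220, 46.3 per kb), nongenic-10605 (chr17:82237655-82237828, 46.0), nongenic-11785 (chr19:5038162-5038391, 43.5) and nongenic-3052 (chr11:70460791-70460907, 42.7). Of their peaks, 90.0% were overlapped by the other protein in nongenic-11785, 80.0% in nongenic-1022 and 75.0% in nongenic-10605, against 40.0% in nongenic-3311 and in nongenic-3052.

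Most regions had few peaks: 337 had 5 to 9, 109 had 10 or more and 22 had 20 or more. The 425 regions of 5 to 20 peaks held 3258 of the 4059 peaks. The 10 regions with most peaks held 539, 13.3% of the total. The first, nongenic-1364 (chr10:5057056-5144487, plus strand), had 44 SRSF1 and 68 SRSF2 peaks over 87.4 kb, an SRSF1 share of 39.3% (30.2 to 49.0). Its peaks fell into 5 stretches, the largest with 44 peaks at chr10:5081342-5103530, and 22 peaks of each protein were overlapped. It ended 7403 nt before an unnamed cluster and lay 510286 nt past Fbxo5, which encodes an inhibitor of the anaphase-promoting complex.

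**Figure D2:**
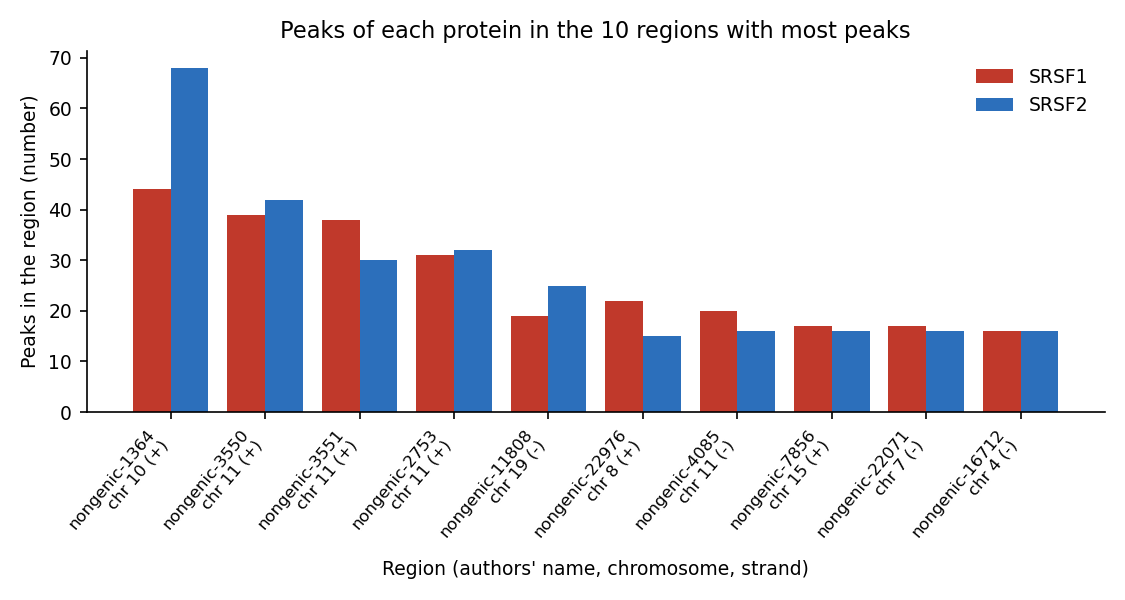
Number of peaks of each protein (bars, from 0) in the 10 regions with most peaks, named as the authors did with chromosome and strand. SRSF2 exceeds SRSF1 most in nongenic-1364 (68 against 44), and SRSF1 exceeds SRSF2 in nongenic-3551 (38 against 30) and nongenic-22976 (22 against 15).

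The second and the third lay side by side on the plus strand of chromosome 11. Nongenic-3550 (chr11:119254415-119287375) had 39 SRSF1 and 42 SRSF2 peaks, and nongenic-3551 (chr11:119291727-119326413), which began 4352 nt further on, had 38 and 30. The unnamed transcript uc007mqo.1 lay between them: nongenic-3550 ended 1 nt before it and nongenic-3551 began 113 nt past it. Their scores were alike, with a median of 16 for SRSF1 and 14 for SRSF2 in each, and no peak scored under 10 in the first or under 12 in the second. The proteins shared more of the first, where 66.7% of peaks were overlapped, than of the second, where 36.8% were. The strongest pair of nongenic-3550 was the SRSF1 peak at chr11:119272821-119272886 (score 39) with the SRSF2 peak at chr11:119272824-119272865 (score 36).

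Nongenic-2753 (chr11:23264068-23313617, plus strand) had 31 SRSF1 and 32 SRSF2 peaks in 49.5 kb and 60.3% of them were overlapped. It lay between Xpo1, which encodes a nuclear export receptor, and Ahsa2, and on GRCm38 the only coding gene between them on this strand is Usp34, which encodes a ubiquitin-specific protease. Nongenic-2754, with 15 peaks, lay 7498 nt away in the same interval. Nongenic-11808 (chr19:5812194-5842109, minus strand), with 19 and 25 peaks, began 280 nt past an unnamed cluster. Only 22.7% of its peaks were overlapped, 5 of each protein. Nongenic-11807 (chr19:5786815-5795484) had 8 SRSF1 and 2 SRSF2 peaks, and lay on the same strand.

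The last 3 of the 10 had 33, 33 and 32 peaks. Nongenic-22071 (chr7:80687015-80702676, minus strand) held 17 SRSF1 and 16 SRSF2 peaks in 1 stretch of 15.7 kb, with 8 of each overlapped. Nongenic-7856 (chr15:99589571-99714581, plus strand) had the same numbers over 125 kb, but 32 of its peaks lay in chr15:99706049-99714581. Nongenic-16712 (chr4:88556567-88811017, minus strand) had 16 of each in 4 stretches over 254 kb and lay 107 nt from nongenic-16711, a region of 25 peaks. In all, 18 regions lay within 10 kb of another on the same strand, so some neighbouring regions may share an RNA and are not independent.

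**Figure D3:**
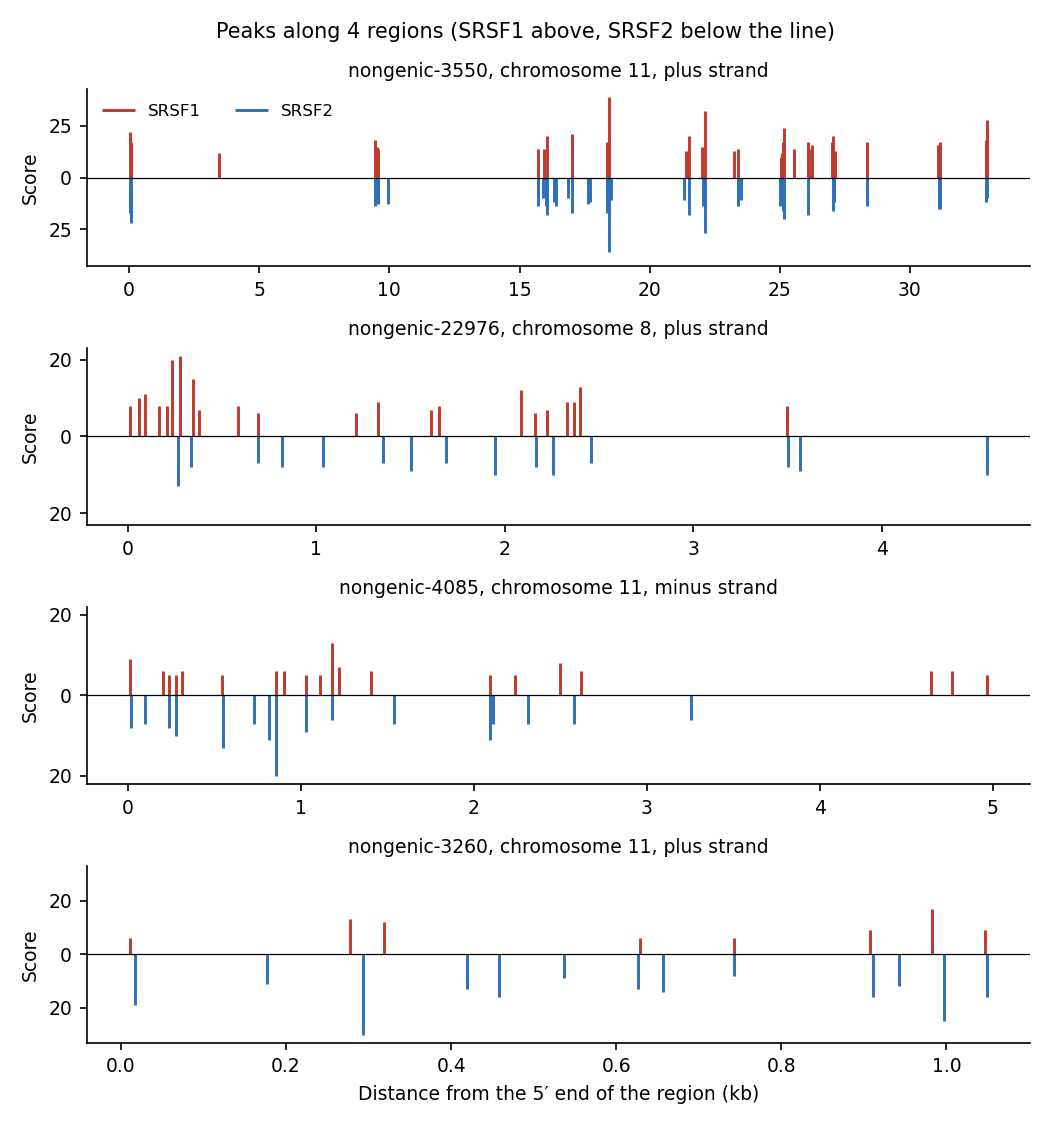
Peaks along 4 regions by distance from the region's 5′ end (kb), with line length giving the authors' score (SRSF1 above and SRSF2 below the axis). The highest lines of nongenic-3550 (39 and 36) stand at the same place, while the 3′ end of nongenic-22976 has SRSF2 peaks alone and that of nongenic-4085 SRSF1 peaks alone.

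The regions were not the weak end of the lists throughout. The median score, the authors' own value, was 6 in both lists (quartiles 5 and 9), against 8 for SRSF1 and 9 for SRSF2 in genic units with at least 5 peaks. High scores were present all the same: 115 SRSF1 peaks (6.23%) and 106 SRSF2 peaks (4.79%) scored 20 or more, against 4.18% and 5.65% in those genic units. Peaks overlapped by the other protein had a median score of 8 in both lists, and the rest 5 for SRSF1 and 6 for SRSF2. The median width was 21 nt, against 19 nt in those genic units.

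A few places carried very high scores of both proteins. In nongenic-4340 on the minus strand of chromosome 11, an SRSF2 peak at chr11:108872992-108873358 scored 229 and covered SRSF1 peaks scoring 196 (chr11:108873100-108873358) and 160 (chr11:108872993-108873097). In nongenic-18854 the SRSF2 peak at chr6:3151469-3151605 had the highest SRSF2 score of the regions, 257, and overlapped an SRSF1 peak of 147 at chr6:3151470-3151553. In nongenic-1041 the SRSF1 peak at chr1:124253767-124253819 (145) and the SRSF2 peak at chr1:124253767-124253820 (178) differed by 1 nt at one end. Nongenic-11295 held the highest SRSF1 score, 206, under an SRSF2 peak of 222. The fifth by score in the SRSF2 list was at chr9:3258828-3258885 in nongenic-24616, with 136. The 5 highest peaks of each list were all overlapped by the other protein. The regions themselves had few to moderate numbers of peaks, from 6 in nongenic-1041 and 8 in nongenic-4340 to 12 in nongenic-24616 and 13 in nongenic-18854. The lowest score was 26 in nongenic-1041 and 10 in nongenic-4340, but 7 in nongenic-18854 and 4 in nongenic-24616.

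SRSF1 made up 45.5% of the peaks in the regions (95% interval 44.0 to 47.1), against 47.5% of all peaks (47.2 to 47.8), 47.5% in genic units with at least 5 peaks and 44.1% (42.7 to 45.5) in nongenic units with fewer. The interval took in the overall share when regions of at least 8 or at least 10 peaks were required (46.5%, 44.5 to 48.4, and 46.9%, 44.6 to 49.1) and when only the upper 50% of each list by score was used (46.3%, 43.1 to 49.5). By region, SRSF2 peaks were more numerous in 252, SRSF1 peaks in 143, and 51 were equal. The SRSF2 list was also the larger as a whole, with 56336 peaks against 50983. This count was not made for genic units, so it is a description only. Nearly all regions held both proteins: 435 (97.5%), with 3 of SRSF1 alone and 8 of SRSF2 alone. This was no trait of the regions, since 98.3% of the genic units with at least 5 peaks (4707 of 4789) held both too.

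Few regions stood far from the overall share. The 95% interval of the region's own share lay above it in 4 regions and below it in 5, together 9 (2.02%). Over all 5245 units with at least 5 peaks, genic ones included, the background was 2.61% above, 2.14% below and 4.75% on either side, so the share among the regions was not above it. The units in that background had more peaks in general, with a median of 12 in the genic ones, and larger units have narrower intervals. A region of 5 peaks could pass only with 5 SRSF1 peaks, and most regions were small, so differences of moderate size were not detectable.

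On the SRSF2 side were nongenic-9284 (chr17:17920292-17966921, 3 SRSF1 and 18 SRSF2 peaks, share 14.3%, 3.05 to 36.3) and nongenic-22655 (chr8:3995718-4089498, 3 and 14). Nongenic-20277 and nongenic-23611 had 0 and 7, and nongenic-11414 had 0 and 6. On the SRSF1 side, nongenic-23230 (chr8:122753608-123012381) had 9 and 1, with 9 of the 10 peaks together at chr8:122753608-122757349. Nongenic-14602 (chr3:45018504-45086489) had 8 and 0 in 4 stretches, nongenic-9723 had 6 and 0, and nongenic-18171 had 5 and 0. No SRSF1 peak of nongenic-23230 scored over 6. High SRSF1 counts were also seen in nongenic-3896 (chr11:68824664-68938122, 10 and 3) and nongenic-24184 (chr9:55477183-55811114, 8 and 2), whose intervals took in the overall share. The same held on the SRSF2 side for nongenic-3211 (chr11:84684444-84685058) and nongenic-5830 (chr13:113297261-113314374), each with 2 and 9.

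**Figure D4:**
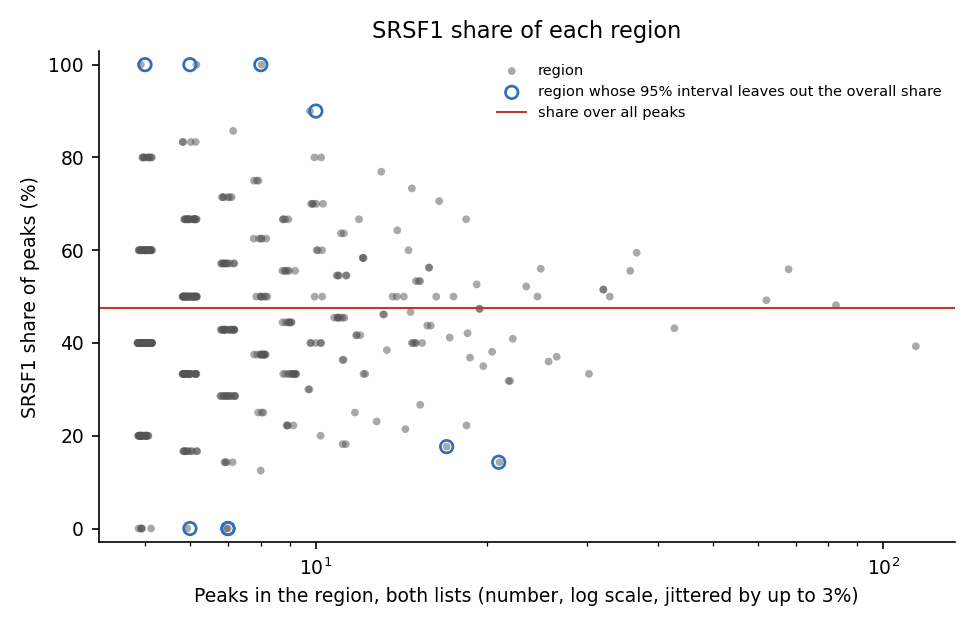
SRSF1 share of peaks (%) against the number of peaks per region (log scale), 1 point per region, with the share over all peaks, 47.5%, as a line and circles around the 9 regions whose 95% interval leaves it out. Shares spread from 0 to 100% at few peaks and draw near the line in the largest regions.

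SRSF1 and SRSF2 often lay on the same bases. Of the SRSF1 peaks in the regions, 874 (47.3%, 45.0 to 49.6) shared at least 1 nt on the same strand with an SRSF2 peak, and of the SRSF2 peaks 867 (39.2%, 37.2 to 41.3) with an SRSF1 peak. This gave 909 pairs in 358 regions (80.3%), and 88 regions had none. Among genic units with at least 5 peaks the share with a pair was much the same, 81.0% (3878 of 4789). In 739 pairs (81.3%) the midpoints were within 10 nt, and 25 pairs had identical ends. The median distance from an SRSF1 peak to the nearest SRSF2 midpoint was 30.5 nt, and from an SRSF2 peak to the nearest SRSF1 midpoint 58.0 nt. In nongenic units with fewer than 5 peaks the overlapped shares were 29.4% and 22.9%. The rule counts both peaks of an overlapping pair, so units with pairs pass it more easily, and this difference follows in part from the choice of regions.

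Genic units chosen by the same number of peaks gave lower pooled shares, but not at every density. With 5 or more peaks, 41.1% of SRSF1 and 37.4% of SRSF2 peaks were overlapped there. Limited to 5 to 20 peaks, the shares were 46.9% and 38.5% in the regions and 30.4% and 27.8% in genic units. At 0.1 to 1 peak per kb, SRSF1 overlap was 36.2% (31.9 to 40.6) in the regions and 36.8% (36.3 to 37.4) in genic units. At 1 to 10 peaks per kb it was lower in the regions, 43.4% (39.8 to 47.1) against 53.5% (52.6 to 54.4). It was higher in the regions below 0.1 peaks per kb, 49.3% (43.8 to 54.7) against 25.0% (23.1 to 27.0). At 10 or more per kb the regions had 75.5% for SRSF1 against 64.5%, but 54.5% for SRSF2 against 71.1%, with only 22 genic units in that class. The direction of the difference thus turned with density.

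Within the regions, overlap was not higher for both proteins in stretches with more peaks. In stretches of 5 or more peaks 50.1% of SRSF1 and 39.6% of SRSF2 peaks were overlapped, and in stretches of 2 to 4 peaks 47.0% and 47.3%. None of the 83 SRSF1 and 87 SRSF2 peaks that stood alone within 5 kb can have been overlapped, by their definition. Regions of 1 stretch and of several gave 50.2% and 44.7% for SRSF1, and 39.2% for SRSF2 in both. A stretch can be long, so its number of peaks does not measure how closely they lay. By density, overlap was highest for both proteins at 10 or more peaks per kb (75.5% of SRSF1 and 54.5% of SRSF2 peaks). It was 43.4% and 34.8% at 1 to 10, 36.2% and 33.8% at 0.1 to 1, and 49.3% and 42.5% below 0.1.

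The place of the regions was measured against the span from first to last peak of each genic unit, since no mm9 annotation was used. No region lay inside such a span on its strand, and no other nongenic unit did. This follows from the naming of these units as nongenic and is not a finding. Within 10 kb past a 3′ end lay 145 regions (32.5%, 28.2 to 37.1), against 28.0% of the other nongenic units. A region near both kinds of end was counted as past the 3′ end. Of the 75 regions within 10 kb before a 5′ start, 23 were counted there, and 52 (11.7%, against 11.3%) were left. Opposite a genic span only lay 41 (9.19%, 6.68 to 12.3, against 5.84%), and 208 (46.6%, 41.9 to 51.4) in none of these places, against 54.9% (53.1 to 56.8). The nearest kilobase showed more: 54 regions (12.1%) began within 1000 nt past a 3′ end, against 162 (5.59%) of 2896 other nongenic units. Because a span ends at the unit's last peak, the true end of the gene can lie beyond the start of such a region. Distances were taken from the outer peaks of a unit, and by the rule the regions held more peaks (median 7 against 1). A unit with more peaks or a longer span comes near or opposite a genic span more easily. Regions opposite a genic span only had a median span of 149 kb. The part of this in the differences from the other nongenic units was not tested.

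Overlap of the proteins differed by place. Past a 3′ end 36.5% (32.6 to 40.5) of SRSF1 peaks and 29.7% (26.5 to 33.2) of SRSF2 peaks were overlapped, and 49 of the 145 regions had no overlapping pair. In regions near no genic span the shares were 55.2% (51.6 to 58.8) and 44.1% (40.9 to 47.4), and 29 of 208 had no pair. Before a 5′ start they were 50.9% and 45.1%, and opposite a genic span 43.8% and 40.2%. Over both proteins the values were 32.8% past a 3′ end and 49.1% near no genic span. They were 29.7% and 53.3% in regions of 1 stretch, and 28.8% and 49.7% in regions of 5 to 20 peaks. The median density was 1.34 peaks per kb past a 3′ end and 2.07 near no genic span, and its part in the difference was not tested. The SRSF1 share differed little between these places, 45.0% past a 3′ end and 44.8% near no genic span.

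**Figure D5:**
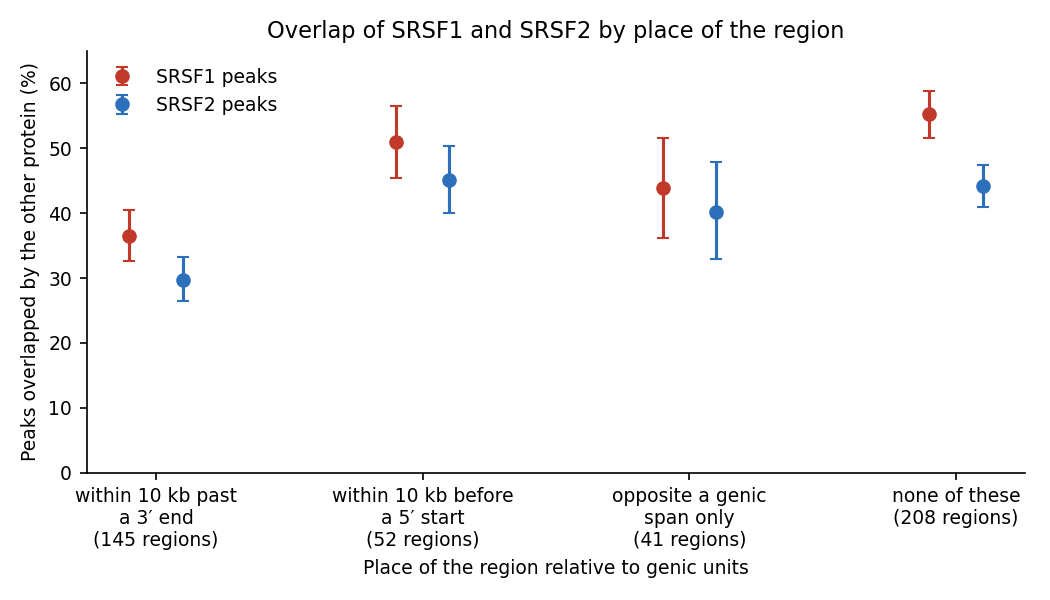
Share of peaks overlapped by the other protein (%), by place of the region, with exact 95% intervals as bars and the number of regions under each place. Regions past a 3′ end sit lowest for both proteins (36.5% and 29.7%), and those near no genic span highest for SRSF1 (55.2%).

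Of the 145 regions past a 3′ end, 38 followed a gene with a name, and those closest to one differed in their peaks. Nongenic-3260 (chr11:94813206-94814269, plus strand) began 48 nt past the last peak of Col1a1, the gene of the collagen I alpha 1 chain that fibroblasts secrete. It held 8 SRSF1 and 13 SRSF2 peaks in 1.06 kb, 19.7 per kb, and 76.2% were overlapped, with all 8 of SRSF1 among them. Its SRSF2 scores were high, with a median of 14 and a maximum of 30 at chr11:94813467-94813531, over an SRSF1 peak of 13 at chr11:94813463-94813504. The map of peaks along this region shows both proteins from its first to its last 100 nt.

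The other four closest had fewer shared peaks. Nongenic-17940 (chr5:143145325-143146489) began 1 nt past Wipi2, a gene of autophagy, with 1 SRSF1 and 7 SRSF2 peaks and 0 overlapped. Nongenic-7762 (chr15:82980254-83003112) began 38 nt past Rnu12, the gene of the U12 small nuclear RNA of the minor spliceosome, with 4 and 1 and again 0 overlapped. Nongenic-5407 (chr13:9172381-9174810) began 85 nt past Larp4b, which encodes an RNA-binding protein, with 7 and 10 peaks in 2.43 kb, of which 47.1% were overlapped. Nongenic-11955 (chr19:23210983-23283166, minus strand) began 86 nt past Smc5, a gene of chromosome maintenance, with 5 and 6, and 10 of these lay at chr19:23281125-23283166, the end nearest the gene.

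At the other extreme were regions far from any genic span on their strand. Nongenic-26405 (chrX:120217272-120217504) lay 9901278 nt away and held 2 SRSF1 and 3 SRSF2 peaks in 233 nt, of which 80.0% were overlapped. Nongenic-1022, the densest, lay 4401070 nt away, and nongenic-14602, with SRSF1 peaks alone, 3467993 nt. Nongenic-12821 (chr2:98502999-98507426) lay 3021401 nt away with 5 and 3 peaks. Nongenic-363 (chr1:113930895-117291899), 3006050 nt away, had its 4 and 1 peaks spread over 3361 kb in 4 stretches. The farthest regions thus included both short groups of stacked peaks and thinly spread ones.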

How the data were processed

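For SRSF1 and SRSF2 the authors deposited 1 list of peaks each, giving each peak a position, a strand, a name and a score. The build is mm9, according to the submitters' processing notes, and positions are printed 1-based. Information on the aligner, the peak caller and what the deposited score measures was not given in the sources used here. Read depth is unknown. The score, at least 4, was ranked only within a list, except that overlapping pairs were ranked by the smaller score; scores of both lists printed side by side are not compared. Peak numbers were missing within the regions' units (11.4% of SRSF1 and 15.2% of SRSF2 numbers), so some numbered peaks are not listed.

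The host unit is the peak name without its closing peak number. Units named nongenic with at least 5 peaks over both lists were kept. The excluded places took out 111 nongenic peaks, and with them 4 units that otherwise had at least 5 peaks. The members and lists were chosen with earlier results of these data known. Overlap means 1 or more shared nt on 1 strand; distances are between midpoints. Intervals are exact (Clopper-Pearson, 95%), and peaks are not independent molecules. Stretches join gaps of up to 5 kb. Place was measured to the span of first to last peak of each genic unit, within 10 kb. Of 2169 RefSeq accessions, 2155 had a symbol in the RefSeq table of GRCm38.p6, used with GENCODE for names and gene order only, and no coordinates were converted. The gene order around nongenic-11808 is not reported here.

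Regions named in the text were the 10 with most peaks, the 5 highest and 5 lowest SRSF1 shares among regions of at least 8 peaks, the 5 densest, the 5 closest past a named 3′ end, the 5 farthest from genic units, and the 5 strongest peaks of each list and pairs. Nongenic-22979, nongenic-2754, nongenic-16711, nongenic-16321, nongenic-20277, nongenic-23611, nongenic-11414, nongenic-9723 and nongenic-18171 were named after their values were seen. The rule, the overlap, the stretches and the intervals were tested on simulated data (Python 3.11.15, pandas 2.3.3, scipy 1.17.1). Other steps, such as place and gene order, were not.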

Additional observations from a re-analysis of the deposited data

How the results depend on the processing

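Of 58 alternatives to the main values, 37 gave the same value within its counting interval or within 1.5 times and 21 did not. Without the alternatives for overlap by place, 31 of 48 did and 17 did not. A minimum of 8 or 10 peaks left 173 or 109 regions, and the upper 50% of each list by score left 82. The overlapped share of SRSF2 peaks was 41.8% and 42.3% under those minimums, 48.4% in the upper 50% and 48.6% when midpoints within 50 nt counted; that of SRSF1 peaks was 57.1% in the upper 50%, 56.6% by midpoints and 50.1% in stretches of 5 or more peaks. Median scores were 7 for SRSF1 and 7 for SRSF2 under either minimum, in place of 6. Regions whose interval left out the overall share numbered 2 with a 99% interval and 4 or 3 under the minimums, in place of 9. The higher minimums and the score limit admit fewer regions by construction. The alternatives for overlap by place and for stretches of 5 or more were chosen after seeing the data. When near meant 1 kb, the overlapped share near no genic span was 44.0%, against 35.4% past a 3′ end. Nongenic peaks joined across 5 kb without the authors' numbering gave 369 regions and a SRSF1 share of 44.8%. No paired analysis was possible because 1 library per protein was analysed, with no replicate numbers.

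With 1 library per protein and unknown read depth, a protein without a peak in a region is not shown to be absent there, and the lists leave out part of the numbered peaks.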
